A study of Mus musculus with 6 samples.

Results

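The genes described here are interferon-stimulated genes, a set of 55 mouse genes that respond to interferon or sense viral RNA, read in the liver 2 weeks after the active form of CREB-H was put back by gene transfer. Members were taken by gene symbol, with class I antigen presentation left out, and 49 of the 55 had a probe set of their own on the array, out of 22180 genes measured in this way. For the 3 members with several probe sets (Ifi35, Lgals3bp and Sp100) the brightest on average is given. Oas1a, Gbp2, Tgtp1, Ifi47 and Dtx3l lay only on probe sets shared with other genes and Ifi44 was not in the probe table used here, so these 6 have no value below.

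The treated group was 3 CREB-H KO mice (allele symbol Creb3l3tm1.1Sad/J, 8 weeks old, normal diet) that received AAV-CREB-H-ΔTC, an adeno-associated virus aimed at the liver that carries the active part of the membrane-bound transcription factor CREB-H. The control group was 3 mice of the same genotype and age that received AAV-GFP, so every animal lacked its own CREB-H and carried a viral vector. No group without a vector and no wild-type group was included in the series, and which promoter the vector carried was not given in the sources used here. Liver RNA of each mouse was read on 1 array as log2 signals per probe set, and all values below are on that scale.

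Interferons bind receptors on the cell surface and act through JAK kinases. Type I and type III interferons act on genes through the interferon-stimulated response element (ISRE), to which STAT2 and IRF9 are recruited, whereas interferon gamma acts through the gamma-activated site (GAS). The genes switched on in this way detect foreign RNA, block its translation, tag proteins with ISG15, restrict vesicle-bound microbes and draw in T cells. Hepatocytes and the other cells of the liver, among them the Kupffer cells, carry receptors for interferon.

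The promoters of the members are shown first because many of them carry the letters of the elements described above. RefSeq promoter windows of GRCm38.p6, from 250 bases before to 50 after the start of each gene, were held for 44 of the 55 members. The ISRE core, written as GAAA, then any 2 bases, then GAAA again, and searched on both strands, occurred in 22 of the 44 (50%), against 3.99% of 27025 genes with a window. The GAS letters TTCNNNGAA, which read the same on both strands, occurred in 12 of the 44 (27.3%), against 9.55% of all genes. Both were found in 7 members and neither in 17. The motifs share the letters GAA, so a base can belong to both. A match describes letters in this window and not a bound site. The stretches below lie upstream of the annotated start, are written 5′ to 3′ on the strand of the gene, and have the matched letters in capitals. ISRE matches are shown for 6 members whose arrays did not overlap between the groups and for Isg15 and Bst2, 2 well-known members whose arrays did. Ddx58 and Ifih1 also had no overlap and hold an ISRE match, but theirs lies past the start and is not shown.
Ifit1, chr19:34640770-34640828, + strand: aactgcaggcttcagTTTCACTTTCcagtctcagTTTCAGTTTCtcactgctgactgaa
Gbp7, chr3:142530268-142530307, + strand: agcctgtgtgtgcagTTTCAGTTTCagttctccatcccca
Irgm1, chr11:48871421-48871465, - strand: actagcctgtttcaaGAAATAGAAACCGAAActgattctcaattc
Rsad2, chr12:26456548-26456587, - strand: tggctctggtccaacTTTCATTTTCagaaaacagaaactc
Apol9a, chr15:77411109-77411154, - strand: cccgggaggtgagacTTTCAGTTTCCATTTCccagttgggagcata
Apol9b, chr15:77729020-77729065, + strand: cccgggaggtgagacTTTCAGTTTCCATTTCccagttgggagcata
Isg15, chr4:156200860-156200911, - strand: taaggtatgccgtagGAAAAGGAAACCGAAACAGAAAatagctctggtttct
Bst2, chr8:71537572-71537617, - strand: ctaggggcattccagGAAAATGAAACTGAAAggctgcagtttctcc
The GAS match is shown for Plscr1, which had the largest difference of the set, for Gbp7, and for Irf1, a factor known for its induction by interferon gamma.
Plscr1, chr9:92250089-92250127, + strand: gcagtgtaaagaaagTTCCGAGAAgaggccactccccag
Gbp7, chr3:142530215-142530272, + strand: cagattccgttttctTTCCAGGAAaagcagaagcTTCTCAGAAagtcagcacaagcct
Irf1, chr11:53769909-53769947, + strand: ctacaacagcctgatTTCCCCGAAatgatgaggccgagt
The Apol9a and Apol9b stretches hold the same letters. The median log2 fold change was 0.36 in the 19 measured members with an ISRE match and 0.32 in the 19 without. It was 0.59 in the 10 with a GAS match and 0.30 in the 28 without. Of those 10, Bst2, Gbp7, Igtp, Irgm2 and Eif2ak2 also hold an ISRE match. The differences of Bst2, Gbp7, Igtp and Irgm2 depended in size on 1 array, as given below, and that of Eif2ak2 was 0.09. These contrasts were not tested. Genes outside the set that held these letters had median differences of 0.01 (638 genes, ISRE) and -0.00 (1545 genes, GAS).

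The comparison asks which of these genes stood at another level when CREB-H-ΔTC was supplied in place of GFP. Signals were higher with CREB-H-ΔTC in 45 of the 49 measured members and lower in 4, namely Trim25, Trim30a, Gbp6 and Oas2, of which Gbp6 turned to 0.01 after quantile normalization and Oas2 to 0.01 after median centring. After adjustment over all 41345 probe sets (limma, Benjamini-Hochberg) 0 members passed (lowest adjusted p = 0.555, Plscr1 and Ube2l6), while 2 probe sets of other genes did, 0.00484% of all and 0.0157% of named genes at or above the dim line given below. The median log2 fold change of the members was 0.36, with a range of -0.25 to 1.00, against a median of -0.01 over all probe sets. A positive difference was found in 46.3% of all probe sets and in 53.3% of those 12742 named genes. A difference of at least 0.3 was reached by 29 members, beside 6.43% of all probe sets and 8.25% of those named genes. At an unadjusted limma p under 0.05, 17 members were higher and 0 lower, beside 2.93% of all probe sets higher and 3.97% lower, and 4.27% and 2.75% of those named genes. In 19 members all 3 CREB-H-ΔTC arrays lay above all 3 GFP arrays, beside 5.23% of all probe sets and 7.31% of those named genes. The reverse order was seen in 0 members, beside 7.1% of all probe sets and 6.35% of those named genes. The differences were small: 16 members reached 0.5 on the log2 scale and only Plscr1 reached 1. With 3 arrays per group an exact permutation test of a single gene cannot go below p = 0.1. Precision is limited by the number of arrays, and the standard errors (SE) of the members' differences ran from 0.11 to 0.56. Leaving out 1 array at a time gave 20 to 29 members higher without overlap, beside 9.1% to 11.8% of all probe sets. Fewer arrays overlap less by construction. The highest count of members came without CREB-H-ΔTC replicate 3.

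**Figure D1:**
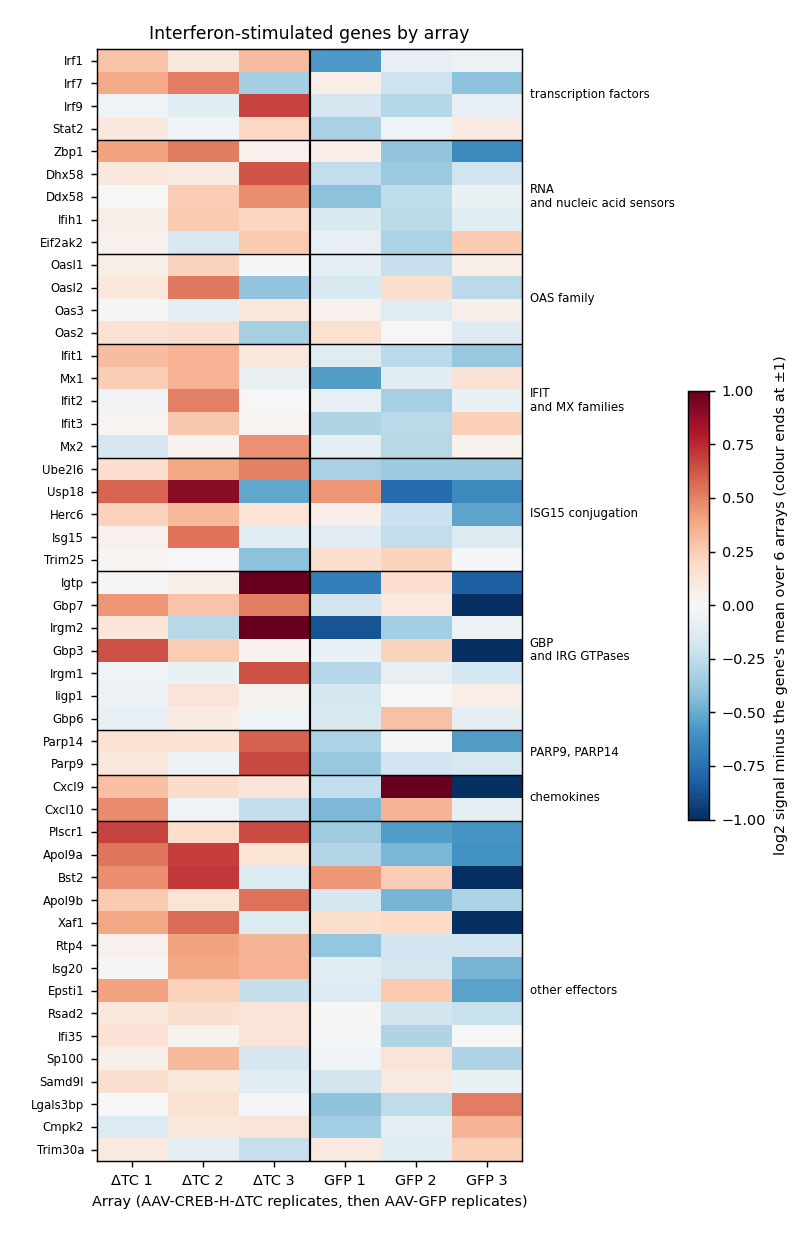
Log2 signal of 49 interferon-stimulated genes on 6 arrays, each gene shown as its distance from its own mean over the 6 arrays (red higher, blue lower, colours end at ±1), with AAV-CREB-H-ΔTC arrays left of AAV-GFP arrays and genes grouped by role. The mean is higher on the left in 45 rows, and the OAS rows differ least as a group, by -0.01 to 0.17.

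**Figure D2:**
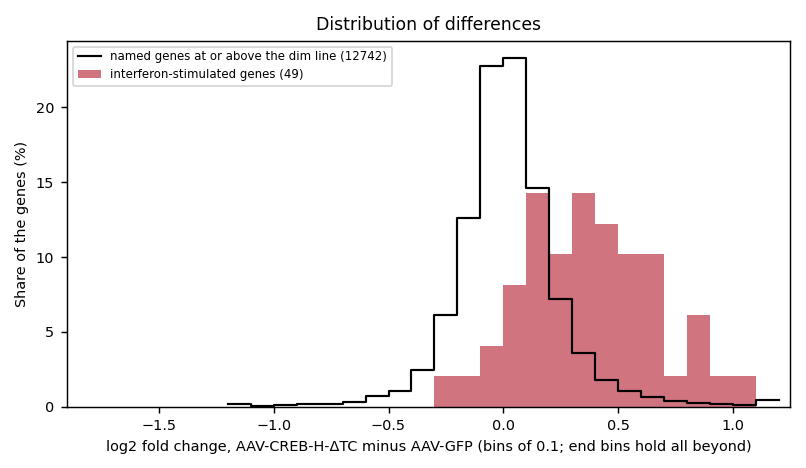
Share of genes (%) in bins of 0.1 of the log2 fold change, AAV-CREB-H-ΔTC minus AAV-GFP, for the 49 interferon-stimulated genes (bars) and for 12742 named genes at or above the dim line (line). The bars centre on 0.36 and the line on 0.01.

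The arrays as a whole were alike, with medians between 4.981 and 5.014 and pairwise correlations across probe sets of 0.976 to 0.987. The supplied gene Creb3l3 had 6.73, 7.25 and 7.58 on the CREB-H-ΔTC arrays, against 6.55, 5.93 and 6.40 on the GFP arrays. It was higher with the vector that carries it (0.89, SE 0.25, exact two-sided permutation p = 0.1, the smallest possible, limma adjusted p = 0.647). The GFP arrays, from mice without their own CREB-H, also read above the dim line given below, and the source of that signal was not tested. Replicate 3 of each group carried signal of Y-linked genes (7.67 with CREB-H-ΔTC and 7.83 with GFP, against 3.15 to 3.39 on the other 4 arrays), and the labels give no sex. A probe set was called dim when its mean over the 6 arrays lay under 5.0, the median of all probe sets, which is close to 4.94, the 95th percentile of 1108 probe sets for olfactory receptors, genes of the nose. Mx1, Gbp6 and Trim30a were dim and the other 46 members were not, although Ifit2 sat at the line with a mean of 5.0.

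The transcription factors of the pathway were all higher. Irf1, which drives many genes induced by interferon gamma, had 7.13, 6.95 and 7.16 on the CREB-H-ΔTC arrays, against 6.27, 6.76 and 6.78 on the GFP arrays, a difference of 0.48 (SE 0.16, limma adjusted p = 0.686). The groups did not overlap, and without GFP replicate 1, the lowest array, the difference was 0.31. Irf7, the factor that turns on the type I interferon genes, differed by 0.36 (SE 0.24, and 0.20 without CREB-H-ΔTC replicate 2), Irf9 by 0.36 (SE 0.22) and Stat2, which with Irf9 binds the ISRE, by 0.19 (SE 0.14, and 0.07 without GFP replicate 1). These 3 overlapped between the groups. Irf9 was carried by CREB-H-ΔTC replicate 3 (8.23, against 7.51 and 7.45 on the other arrays of that group), and its difference was 0.10 without that array.

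Of the 5 sensors of foreign nucleic acid, 4 had an unadjusted p under 0.05, beside 2.93% of all probe sets that were higher at that p. Ddx58, which encodes the RNA sensor RIG-I, read 7.34, 7.59 and 7.80 with CREB-H-ΔTC and 6.92, 7.08 and 7.27 with GFP, a difference of 0.49 (SE 0.15, limma adjusted p = 0.662). Ifih1, the sensor MDA5 for long double-stranded RNA, read 8.58, 8.78 and 8.73 with CREB-H-ΔTC and 8.37, 8.25 and 8.40 with GFP, a difference of 0.36 (SE 0.11). Dhx58, which encodes LGP2, the third member of the same helicase family, had 6.18, 6.15 and 6.70 with CREB-H-ΔTC, against 5.82, 5.70 and 5.87 with GFP, a difference of 0.54 (SE 0.17). In all 3 helicases every CREB-H-ΔTC array lay above every GFP array. Zbp1, a sensor of Z-form nucleic acid that can trigger cell death, had 6.84, 6.96 and 6.48, against 6.5, 6.04 and 5.80 with GFP. Its difference was 0.64 (SE 0.21), and the groups met only where CREB-H-ΔTC replicate 3 lay below GFP replicate 1. Eif2ak2, the kinase PKR that halts translation on double-stranded RNA, differed by 0.09 (SE 0.18) and overlapped.

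The OAS family, enzymes that make oligoadenylates and so switch on RNase L, was nearly level between the groups. Oasl1, an OAS-like protein, had 6.08, 6.25 and 6.0 with CREB-H-ΔTC, against 5.93, 5.79 and 6.09 with GFP, a difference of 0.17 (SE 0.12, limma adjusted p = 0.853) that was 0.10 without CREB-H-ΔTC replicate 2. Oasl2, Oas3 and Oas2 differed by 0.16 (SE 0.25), 0.02 (SE 0.11) and -0.01 (SE 0.17). All 4 overlapped between the groups, and the 95% intervals reached from -0.42 to 0.74 (Oasl2), a range that takes in the differences of the helicases, whereas that of Oas3 ended at 0.28.

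Among the IFIT proteins, which hold back translation of foreign RNA, Ifit1 had 7.02, 7.06 and 6.82 with CREB-H-ΔTC, against 6.59, 6.44 and 6.33 with GFP. The groups did not overlap, with a difference of 0.51 (SE 0.12, limma adjusted p = 0.616). Ifit2 read 4.97, 5.51 and 5.01 with CREB-H-ΔTC and 4.92, 4.67 and 4.94 with GFP, so that the groups were apart by a narrow margin at the dim line (0.32, SE 0.17), and the difference was 0.15 without CREB-H-ΔTC replicate 2. Ifit3, its neighbour on the chromosome, differed by 0.22 (SE 0.17), by 0.13 without GFP replicate 1 and by 0.40 without GFP replicate 3. Of the Mx GTPases, which trap viral nucleoprotein, Mx1 was dim, with 3.8, 3.9 and 3.48 on the CREB-H-ΔTC arrays and 2.99, 3.44 and 3.70 on the GFP arrays. The groups of Mx1 overlapped (0.35, SE 0.21, and 0.16 without GFP replicate 1), as did those of Mx2 (0.22, SE 0.18, and 0.05 without CREB-H-ΔTC replicate 3).

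ISG15 is a ubiquitin-like protein that Ube2l6 and Herc6 attach to other proteins and that Usp18 removes. Ube2l6, the conjugating enzyme, had 8.31, 8.53 and 8.65 with CREB-H-ΔTC, against 7.82, 7.78 and 7.78 with GFP. The GFP arrays were nearly equal and the difference was 0.70 (SE 0.12, 95% interval 0.42 to 0.98), a 1.63-fold level, with an unadjusted p = 0.000647 and a limma adjusted p = 0.555. Herc6, the main ISG15 ligase of the mouse, read 8.13, 8.22 and 8.03 with CREB-H-ΔTC and 7.95, 7.68 and 7.37 with GFP (0.46, SE 0.16), again without overlap. Isg15 itself differed by 0.32 (SE 0.18) with overlap, and by 0.13 without CREB-H-ΔTC replicate 2. Usp18, which also damps signalling at the type I receptor, differed by 0.64 with a wide SE of 0.45, its arrays running from 6.84 to 8.26 with CREB-H-ΔTC and from 6.59 to 7.80 with GFP. It was 1.06 without CREB-H-ΔTC replicate 3 and 0.35 without replicate 2. Trim25, a ligase that assists RIG-I, was lower (-0.25, SE 0.15, and -0.11 without CREB-H-ΔTC replicate 3).

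The GBP and IRG families are GTPases known for their induction by interferon gamma and for attacking the vacuoles of intracellular microbes, and several of them scattered widely between arrays of a group. Gbp7 had 8.56, 8.40 and 8.63 with CREB-H-ΔTC, against 7.93, 8.21 and 6.96 with GFP, a difference of 0.83 (SE 0.31, limma adjusted p = 0.693). The groups did not overlap, but GFP replicate 3 stood well below the other GFP arrays, and the difference was 0.46 without it. The adjoining gene Gbp3 differed by 0.62 (SE 0.34), and by 0.23 without the same array. Igtp and Irgm2, neighbours on the chromosome, differed by 0.89 (SE 0.41) and 0.83 (SE 0.44), and in both CREB-H-ΔTC replicate 3 was the highest array (9.19 and 9.55). Without it the differences were 0.47 and 0.34. Irgm1 read 6.67, 6.64 and 7.34 with CREB-H-ΔTC and 6.42, 6.62 and 6.53 with GFP, apart by a narrow margin, and its difference of 0.36 (SE 0.20) was 0.13 without CREB-H-ΔTC replicate 3. Iigp1 was bright and level, at 11.45, 11.63 and 11.54 with CREB-H-ΔTC and 11.33, 11.51 and 11.57 with GFP (0.07, SE 0.11, and 0.00 without GFP replicate 1). Gbp6 was dim and level, at 3.68, 3.84 and 3.72 with CREB-H-ΔTC and 3.61, 4.06 and 3.67 with GFP (-0.03, SE 0.14).

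Parp14, an enzyme that adds ADP-ribose to proteins, had 8.10, 8.09 and 8.54 with CREB-H-ΔTC, against 7.63, 7.94 and 7.39 with GFP, a difference of 0.59 (SE 0.19, limma adjusted p = 0.67). Parp9, which pairs with the ligase Dtx3l, had 8.14, 7.98 and 8.69 with CREB-H-ΔTC, against 7.65, 7.84 and 7.87 with GFP (0.49, SE 0.19). Both stood apart between the groups, with CREB-H-ΔTC replicate 3 the highest array, and Parp9 differed by 0.28 without it. The chemokines that call in CXCR3-bearing T cells were not apart. Cxcl9 was steady with CREB-H-ΔTC (9.17, 9.05 and 8.99) and scattered with GFP (8.62, 9.94 and 7.45), a difference of 0.40 (SE 0.56) that turned to -0.21 without GFP replicate 3. Cxcl10 differed by 0.13 (SE 0.25).

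Among the remaining effectors, Plscr1 and Apol9a had the largest differences of the set. As a group these effectors had a median of 0.27, beside 0.62 for the GBP and IRG members. Plscr1, a phospholipid scramblase that strengthens interferon responses, had 6.48, 5.98 and 6.46 with CREB-H-ΔTC, against 5.45, 5.25 and 5.22 with GFP. The lowest CREB-H-ΔTC array stood well above the highest GFP array, and the difference was 1.00 (SE 0.16, 95% interval 0.61 to 1.39), a 2.0-fold level, with an unadjusted p = 0.000526 and a limma adjusted p = 0.555. Apol9a, an interferon-induced apolipoprotein L of the mouse, had 8.53, 8.69 and 8.13 with CREB-H-ΔTC, against 7.70, 7.54 and 7.39 with GFP (0.91, SE 0.17, 1.87-fold, limma adjusted p = 0.566). Apol9b read 9.41, 9.28 and 9.69 with CREB-H-ΔTC and 8.98, 8.68 and 8.83 with GFP (0.63, SE 0.14, 1.55-fold). These 2 genes are close copies of each other, so their probe sets may read both transcripts and do not count as separate results. Rtp4, which binds RNA and restricts some viruses, had 8.08, 8.44 and 8.38 with CREB-H-ΔTC, against 7.65, 7.85 and 7.84 with GFP (0.52, SE 0.13). Isg20, an RNA exonuclease, had 7.19, 7.56 and 7.52 with CREB-H-ΔTC, against 7.06, 7.01 and 6.71 with GFP (0.50, SE 0.15). All 5 of these genes were clear of overlap.

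Rsad2, which encodes viperin, a maker of chain-ending nucleotides, had 6.76, 6.81 and 6.78 with CREB-H-ΔTC, against 6.66, 6.47 and 6.43 with GFP (0.26, SE 0.11). The CREB-H-ΔTC arrays were almost equal, while its neighbour Cmpk2, which supplies nucleotides, differed by 0.07 (SE 0.19). Ifi35 read 7.53, 7.42 and 7.51 with CREB-H-ΔTC and 7.37, 7.08 and 7.39 with GFP (0.21, SE 0.12), apart by a narrow margin, and by 0.11 on average without GFP replicate 2. A second probe set of Ifi35 differed by 0.08 (SE 0.12). Bst2, which tethers budding virus to the cell, had 10.16, 10.40 and 9.56 with CREB-H-ΔTC, against 10.13, 9.94 and 7.99 with GFP. Its difference of 0.69 (SE 0.56) rested on GFP replicate 3 and was 0.00 without it. The same array was lowest in Xaf1, a promoter of cell death (0.54, SE 0.39), which differed by 0.09 without it. Epsti1 differed by 0.27 (SE 0.25, and 0.07 without GFP replicate 3), Sp100, of the nuclear bodies, by 0.14 (SE 0.17, and 0.01 without CREB-H-ΔTC replicate 2), Samd9l by 0.11 (SE 0.13, and 0.04 without GFP replicate 1), the secreted glycoprotein gene Lgals3bp by 0.10 (SE 0.24) and Trim30a by -0.15 (SE 0.14, and -0.07 without GFP replicate 3).

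**Figure D3:**
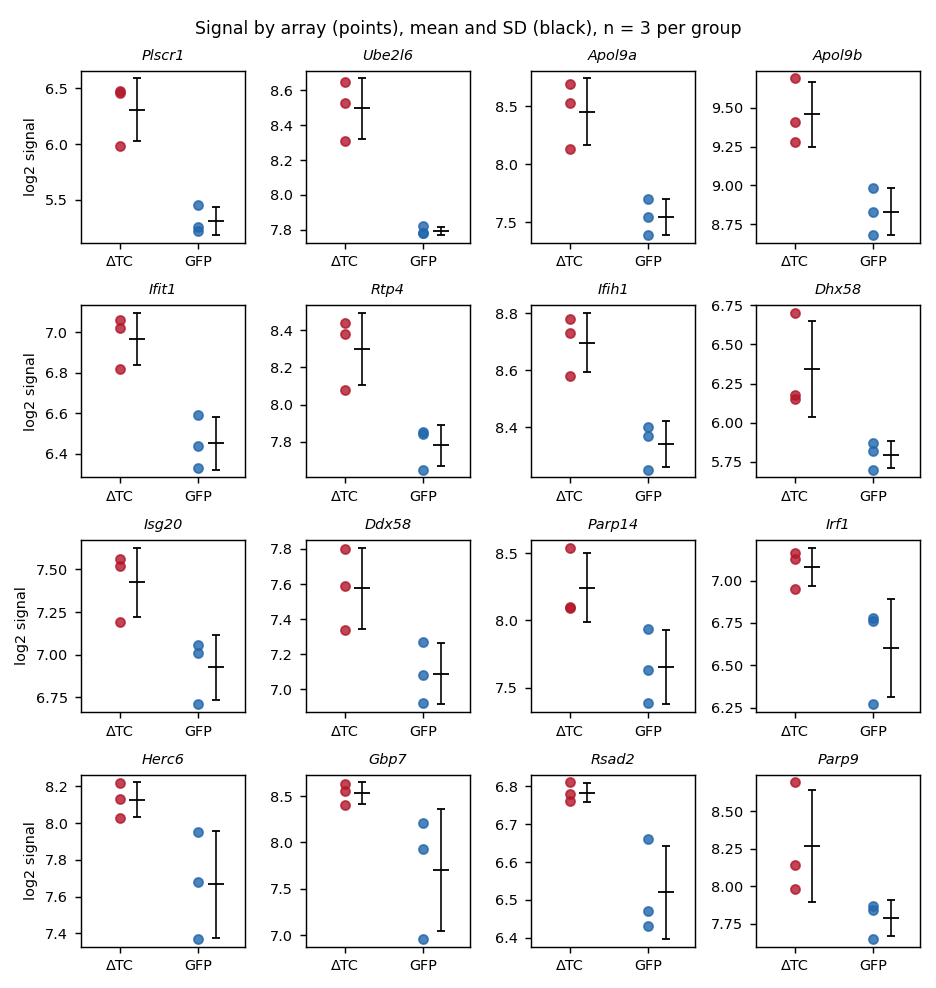
Log2 signal by array of the 16 members without overlap between the groups and with an unadjusted limma p under 0.05, in order of p, AAV-CREB-H-ΔTC (red) left of AAV-GFP (blue). Black marks are means with SD, n = 3, and each panel has its own axis, which does not start at 0.

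**Figure D4:**
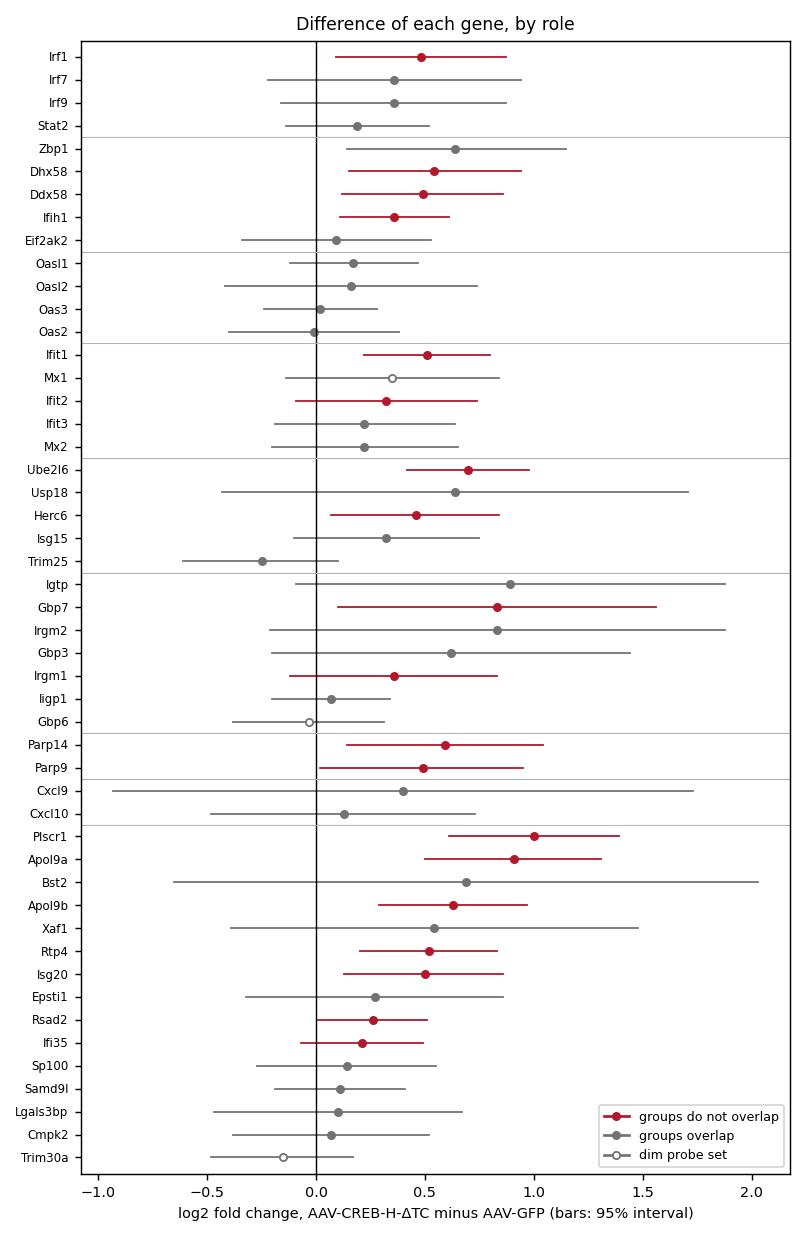
Log2 fold change of each member, AAV-CREB-H-ΔTC minus AAV-GFP, with 95% intervals from limma, grouped by role and in red where the groups did not overlap (19 members). Open points are the 3 dim members, and the widest intervals belong to Bst2 and Cxcl9.

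Taken by array, the pooled median of the members separated the groups, but the medians of some role groups did not. The median over members of the distance from each gene's own mean was 0.11, 0.17 and 0.12 on the CREB-H-ΔTC arrays, against -0.15, -0.19 and -0.16 on the GFP arrays. For named genes at or above the dim line this median lay between -0.02 and 0.01. For the OAS members it was 0.08, 0.19 and -0.18 with CREB-H-ΔTC, against -0.03, -0.06 and -0.04 with GFP. The medians of the IFIT and MX, ISG15 conjugation, GBP and IRG, and chemokine members also met or overlapped between the groups. The highest of the 6 arrays was a CREB-H-ΔTC array in 42 members. It was replicate 2 of that group in 21, replicate 3 in 15 and replicate 1 in 6. The lowest array was GFP replicate 3 in 18 members, replicate 1 in 15, replicate 2 in 12, and CREB-H-ΔTC replicate 3 in the other 4. Between the 2 arrays with Y-linked signal 36 of 49 members were higher with CREB-H-ΔTC (median difference 0.34), beside 48% of all probe sets. Among the other 4 arrays 46 members were higher (median 0.31), beside 46.9% of all probe sets. The role groups differed between these subsets, as the GBP and IRG members had a median of 1.12 in the pair with Y-linked signal and 0.28 in the other 4 arrays, while the IFIT and MX members had 0.08 and 0.45. These differences between subsets were not tested.

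Cells other than hepatocytes also express these genes, and in whole liver more cells of a type cannot be told apart from more RNA per cell. All 7 measured hepatocyte markers, led by Alb, were bright (means of 11.14 to 13.82) and their differences lay between -0.02 and 0.10. All 8 Kupffer cell markers, among them Clec4f, Vsig4 and Adgre1, were higher with CREB-H-ΔTC, by 0.33 to 0.60, and only Cd68 did so without overlap. Their summed linear signal was 2779 to 4997 with CREB-H-ΔTC, against 2124 to 4077 with GFP. By array the median of the Kupffer cell markers was 0.41, 0.59 and -0.29 with CREB-H-ΔTC, against -0.27, 0.24 and -0.64 with GFP. These medians had the same sign as those of the interferon-stimulated genes on CREB-H-ΔTC replicates 1 and 2 and on GFP replicates 1 and 3. The signs differed on CREB-H-ΔTC replicate 3 and on GFP replicate 2. All 3 measured B cell markers were higher (0.30 to 0.57), with summed signals of 101 to 136 with CREB-H-ΔTC and 81 to 103 with GFP. Cd79a (0.57, SE 0.18) and the dim Ms4a1 (0.38, SE 0.15) were higher without overlap, as were 5.23% of all probe sets. By array the median of the B cell markers was 0.38, 0.24 and -0.05 with CREB-H-ΔTC, against -0.14, -0.37 and -0.06 with GFP. T cell markers were higher in 2 of 7 (median -0.04, sums of 207 to 248 with CREB-H-ΔTC and 223 to 284 with GFP), and 4 of the 7 were dim, namely Cd3d, Cd2, Cd4 and Cd8a. NK cell markers were higher in 5 of 7 (median 0.05, sums of 209 to 235 with CREB-H-ΔTC and 190 to 241 with GFP), and 4 of the 7 were dim. Of the plasmacytoid dendritic cell markers, a cell type known for its output of type I interferon, 2 of 4 were higher (median -0.05, sums of 118 to 262 with CREB-H-ΔTC and 102 to 417 with GFP). These sums followed the order of Klk1 alone, which ran from 5.06 to 7.51 with CREB-H-ΔTC and from 4.16 to 8.25 with GFP. Siglech was lower without overlap (-0.17, SE 0.10), as were 7.1% of all probe sets. Monocyte markers were higher in 4 of 6 (median 0.13), neutrophil markers in 1 of 6 (median -0.08), sinusoidal endothelial markers in 5 of 6 (0.19), stellate cell markers in 5 of 6 (0.20) and cholangiocyte markers in 4 of 5 (0.25). Dim markers made up 5 of the 6 for neutrophils, 4 of the 5 for cholangiocytes, 2 of the 6 for monocytes, 1 of the 4 for plasmacytoid dendritic cells and 1 of the 3 for B cells, and the levels of dim markers could not be read. No marker passed the adjusted test. The part of other cell types in the result was not tested.

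**Figure D5:**
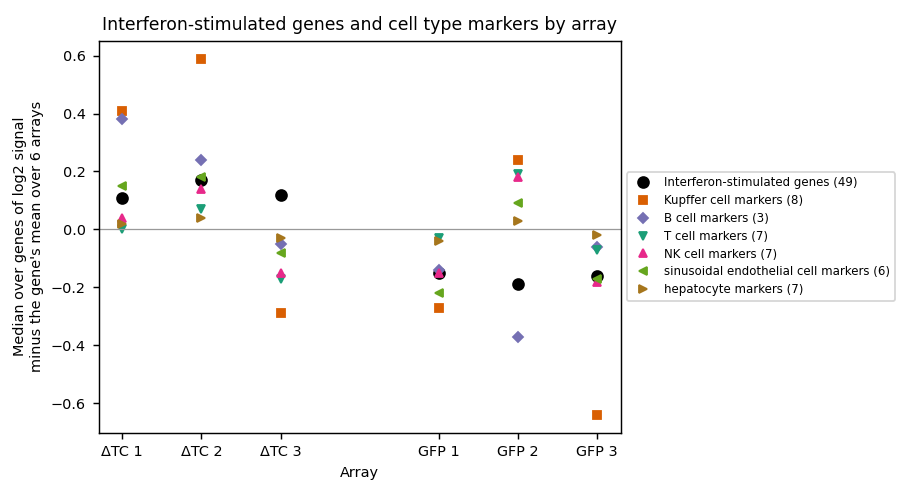
Median over genes of the log2 signal minus each gene's mean over the 6 arrays, for the interferon-stimulated genes (black) and for markers of liver cell types, AAV-CREB-H-ΔTC arrays left of AAV-GFP arrays, with the number of genes in parentheses. The black points lie at 0.11 to 0.17 with CREB-H-ΔTC and at -0.19 to -0.15 with GFP. The Kupffer cell points lie on the same side of 0 as the black points except on CREB-H-ΔTC replicate 3 and GFP replicate 2.

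Upstream of these genes, the ligands were mostly dim and did not stand higher. Of 19 measured interferon genes 12 were dim, 9 were higher and 10 lower with CREB-H-ΔTC, and the median difference was -0.00. Ifng, the gene of interferon gamma, had 4.08, 3.81 and 4.30 with CREB-H-ΔTC, against 3.71, 3.7 and 3.6 with GFP (0.39, SE 0.14, limma adjusted p = 0.693), without overlap but below the dim line. Ifnb1 (-0.25, SE 0.12) and Ifnk (-0.48, SE 0.15) were lower without overlap and equally dim. Signals of this size are within the range of olfactory receptor genes, so the level of these 12 ligands could not be read. The 7 ligands above the line differed by -0.21 (Ifna4) to 0.18 (Ifnl3), and genes of the Ifna family are close copies whose probe sets may read one another.

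Of the 6 interferon receptor genes 5 were higher (median 0.24). Those with the lowest unadjusted p were Ifngr1 (0.33, SE 0.15), Il10rb (0.30, SE 0.15) and Ifnar2 (0.23, SE 0.12), and Ifngr2 differed by 0.26 (SE 0.15). Among the kinases that sit on these receptors, Jak2 had 8.38, 8.18 and 8.40 with CREB-H-ΔTC, against 7.74, 8.10 and 8.04 with GFP (0.36, SE 0.13, limma adjusted p = 0.699). Jak1 and Tyk2 differed by 0.10 (SE 0.10) and 0.09 (SE 0.19). Inhibitors of the pathway did not stand higher as a list, with 2 of 7 above 0 (median -0.02). Those with the lowest unadjusted p were Ptpn11 (-0.16, SE 0.10), Pias1 (0.14, SE 0.12) and Ptpn1 (-0.20, SE 0.23), none of them with an unadjusted p under 0.05.

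Among 15 measured adaptors, endosomal receptors and further IRF factors, 11 were higher (median 0.13). Irf2, a factor that binds the same elements as Irf1, had 8.97, 8.85 and 9.0 with CREB-H-ΔTC, against 8.43, 8.67 and 8.55 with GFP (0.39, SE 0.11, limma adjusted p = 0.647). Tlr3, the endosomal receptor for double-stranded RNA, had 7.39, 7.48 and 7.2 with CREB-H-ΔTC, against 6.54, 6.87 and 7.07 with GFP (0.53, SE 0.16). Both were free of overlap. Myd88, the adaptor of most other Toll-like receptors, ran the other way, at 7.66, 7.81 and 7.37 with CREB-H-ΔTC and 8.15, 7.86 and 8.07 with GFP (-0.41, SE 0.15). Chosen after their values were seen, Mavs, the adaptor of the RNA helicases (-0.18, SE 0.10), and Irf3, a factor it activates (-0.17, SE 0.09), were also lower without overlap. Tlr7, the endosomal receptor for single-stranded RNA, chosen in the same way, was higher without overlap, at 5.81, 6.21 and 5.73 with CREB-H-ΔTC and 5.46, 5.45 and 4.12 with GFP (0.91, SE 0.37), where GFP replicate 3 stood far below the other GFP arrays. All 3 measured genes that limit nucleic acid sensing were higher, namely Samhd1 (0.41, SE 0.20), Rnaseh2b (0.26, SE 0.19) and Adar (0.24, SE 0.13).

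Class I presentation genes, which interferons also induce and which are not members, were higher in 10 of 11 (median 0.32). H2-K1, a class I heavy chain, had 11.02, 11.04 and 11.03 with CREB-H-ΔTC, against 10.45, 10.33 and 10.26 with GFP (0.68, SE 0.10, limma adjusted p = 0.503). Psmb9, an interferon-induced subunit of the immunoproteasome, had 6.51, 6.46 and 6.90 with CREB-H-ΔTC, against 6.01, 5.89 and 5.70 with GFP (0.76, SE 0.16). Both stood clear of overlap. Tapbp, a chaperone of class I loading, differed by 0.32 (SE 0.12). Over all 64 measured genes of the upstream and presentation lists, 0 passed after adjustment. At an unadjusted limma p under 0.05, 9 were higher and 2 lower, beside 2.93% and 3.97% of all probe sets. Without the class I genes these were 5 higher and 2 lower of 53.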

How the data were processed

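Total RNA of 6 livers was converted to single-stranded cDNA, labelled with biotin and read on 1 array each, per the labels' protocols. What the authors deposited is 1 log2 signal for each probe set and array. Per the submitters' processing notes, the authors used Transcriptome Analysis Console. The log2 scale was read from the values (1.42 to 13.87), and the summarisation and the normalization between arrays were not given in the sources used here. Without scanner files, background and detection could not be examined, so differences of dim genes may be understated.

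Probe sets were named through the annotation that GEO holds for the platform (23521 probe sets with 1 symbol, 1814 with several, 16010 not listed). Differences, CREB-H-ΔTC minus GFP, were tested in R 4.3.3 with limma 3.58.1 (lmFit, then eBayes, group only, two-sided, Benjamini-Hochberg adjustment over 41345 probe sets, threshold 0.05). Replicates are separate mice per the labels. Alternatives were other scalings, filters, limma settings, a replicate block and the omission of single arrays. In simulated data with 3 arrays per group over 41345 probe sets, 2% of changes of 0.5 on the log2 scale, 44% of changes of 1 and 88% of changes of 2 were recovered. These were set together with changes of 4, in 50 probe sets per size, all above the median signal. Only 2 probe sets passed in the real data, so the recovered shares may be too favourable for these data. The members, the lists and the alternatives were chosen with earlier results of these data known. Values per array are given for members without overlap between the groups, with an unadjusted p under 0.05, among the 2 brightest or 2 dimmest, or with the lowest p of their role group. Of each upstream list, up to 3 genes of lowest p are given with their differences, and only some of them also per array. Ifngr2, Mavs, Irf3 and Tlr7 were added to these, and Ifna4 and Ifnl3 as ends of a range. Mb21d1 and Tmem173 were found under the symbols Cgas and Sting1. Promoter sequences are from RefSeq, GRCm38.p6. Figures were drawn with matplotlib 3.10.9.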

Additional observations from a re-analysis of the deposited data

How the results depend on the processing

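The count of members past the adjusted threshold was 0 under all 17 alternatives (quantile normalization, median centring, filters on the dimmest 25% and 50% of probe sets, 2 limma-trend fits, the replicate number as a block, array weights, a term for Y-linked signal, the 4 arrays without it, averaging over probe sets of 1 gene, and each array left out), with adjusted p of 0.27 to 1.0. Deviations of same-numbered arrays correlated at 0.08, 0.13 and 0.33, and only replicate 3 of CREB-H-ΔTC correlated best with its own number, so the numbers were not taken as pairs. With the replicate number as a block, 19 members were higher at an unadjusted p under 0.05, in place of 17, the median stayed at 0.36 and no call changed. With a term for Y-linked signal 21 were higher and 1, Trim25, was lower at that p. The share of all probe sets at that p is not given here for any alternative. Changes in these counts can therefore not be read as results about the members. With each array left out in turn, 43 to 44 members were higher, 12 to 16 were higher at an unadjusted p under 0.05, and the median lay between 0.32 and 0.42. The members higher without overlap numbered 20 to 29 in these fits, and 35 in the 4 arrays without Y-linked signal, where the median was 0.31. Fewer arrays overlap less by construction, as 18.5% of all probe sets met that rule in the 4 arrays and 9.1% to 11.8% with 1 array left out. Direction turned in 10 members, all of small difference or scattered arrays. With 1 array left out the lowest and highest values were -0.04 and 0.25 for Eif2ak2, -0.09 and 0.15 for Oas2, -0.04 and 0.07 for Oas3, -0.07 and 0.39 for Oasl2, -0.12 and 0.10 for Gbp6, -0.21 and 1.04 for Cxcl9, -0.07 and 0.33 for Cxcl10, -0.09 and 0.25 for Cmpk2, and -0.08 and 0.38 for Lgals3bp. Oas2 was 0.03 with array weights, 0.01 after median centring and 0.09 in the 4 arrays, where Cxcl9 was -0.17 and Trim30a 0.00. Gbp6 was 0.01 after quantile normalization. The causes were not tested. No scaling moved the median of all probe sets by more than 0.1.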
